A study of Rattus norvegicus with 9 samples.

Results

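Gene expression in injured kidneys from rats given rapamycin was compared with that in sham-operated kidneys, to describe what still set the treated kidneys apart from uninjured ones. The groups were taken from the labels, which gave 3 libraries to each, so that 6 of the 9 libraries of the study enter this comparison. The other 3 libraries, from injured kidneys without the drug (I/R), share the estimate of spread, and their values are given beside the results. All rats were wild-type Sprague-Dawley animals of 6 to 8 weeks, and all libraries carry batch 1. The sham group had surgery with neither ischaemia nor drug, and the I/R + rapamycin group, called the rapamycin group from here on, had 45 min of renal ischaemia, reperfusion and rapamycin. No group had rapamycin without injury, so the parts of injury and drug in a difference from sham cannot be told apart.

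The labels left parts of the treatment unsettled. The series design gave males only, 1 mg/kg of drug per day and injection into the peritoneum, with the left renal artery clamped. The sample protocols gave both sexes, oral dosing from the day before surgery at 1 or 2 mg/kg per day, and either 3 or 7 days of reperfusion, in 6 groups. The labels name kidney as the tissue and renal tubular cell as the cell type. Libraries of a group are numbered, and nothing says that they are different animals. The p-values therefore measure only the spread between these samples, which may be technical.

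Ischaemia followed by reperfusion injures the kidney chiefly in the proximal tubule, whose cells depend on mitochondrial oxidation, and surviving tubule cells then repair the epithelium while endothelium, stroma and immune cells respond. Rapamycin binds FKBP12 and inhibits mTOR complex 1, the kinase complex that promotes protein, lipid and nucleotide synthesis and restrains autophagy. Both the injury and the drug can therefore change transport, oxidant defence, growth factor signalling and metabolism.

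Total counts per library ranged from 44582251 to 60538627, and 17335 of 30454 gene IDs had enough reads to be tested. Only 10804 of the tested IDs carry a symbol that could be used. The first principal component of the 9 libraries, 29.9% of the variance, set sham 3 at 29.8 and I/R 1 at 24.1 against rapamycin 1 at -36.3 and rapamycin 2 at -23.0. All 8 defining tubule markers were measured, with a summed level of 10358 to 12748 CPM (counts scaled to library size) in sham and 10285 to 11725 CPM in the rapamycin libraries. Podocyte markers (3 of 3 measured, 555 to 573 CPM in sham), endothelial markers (4 of 4, 345 to 354 CPM) and fibroblast markers (3 of 3, 158 to 521 CPM) were present as well, so RNA of cells other than tubule cells was present. None of the 3 defining lymphocyte markers or 2 defining neutrophil markers could be measured by name, and the longer lists held 2 measured genes for each. The fitted log2 fold changes fell with the transcript length implied by the deposited values (Spearman -0.26 across 11232 genes, which are not independent replicates).

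Between rapamycin-treated injured and sham kidneys 27 of 17335 genes differed at an adjusted p under 0.05 (edgeR's quasi-likelihood test, Benjamini-Hochberg adjustment over all genes), which is 0.156% of those tested. Of these, 7 were higher (0.0404%) and 20 lower (0.115%) in the rapamycin group. In what follows, log2FC is the log2 fold change of the rapamycin group over sham with its standard error after the ± sign. The median log2 fold change of all tested genes was 0.00. Among those with a symbol, Gpx2, Rgn, Inmt, Serpine2 and Necab1 rose, and 12 fell, among them the endothelial proteoglycan gene Esm1, the matrix protein gene Smoc1, the organic cation transporter gene Slc22a2 and the ERK phosphatase gene Dusp6. Of the 27, 9 IDs have no symbol in the tables. DESeq2 called 568 of 17388 genes (3.27%), 198 higher and 370 lower, and its calls included all 27. They also included an ID with reads in rapamycin 1 but in no other rapamycin library and no sham library. Leaving out 1 library moved the count: it was 3 without rapamycin 1, 5 without rapamycin 2, 30 without rapamycin 3, 10 without sham 1, 5 without sham 2 and 40 without sham 3. Omission of an untreated injured library gave 47 (I/R 1), 14 (I/R 2) and 23 (I/R 3). Only LOC100911413, Esm1 and Smoc1 were called in all 9 of these fits.

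**Figure D1:**
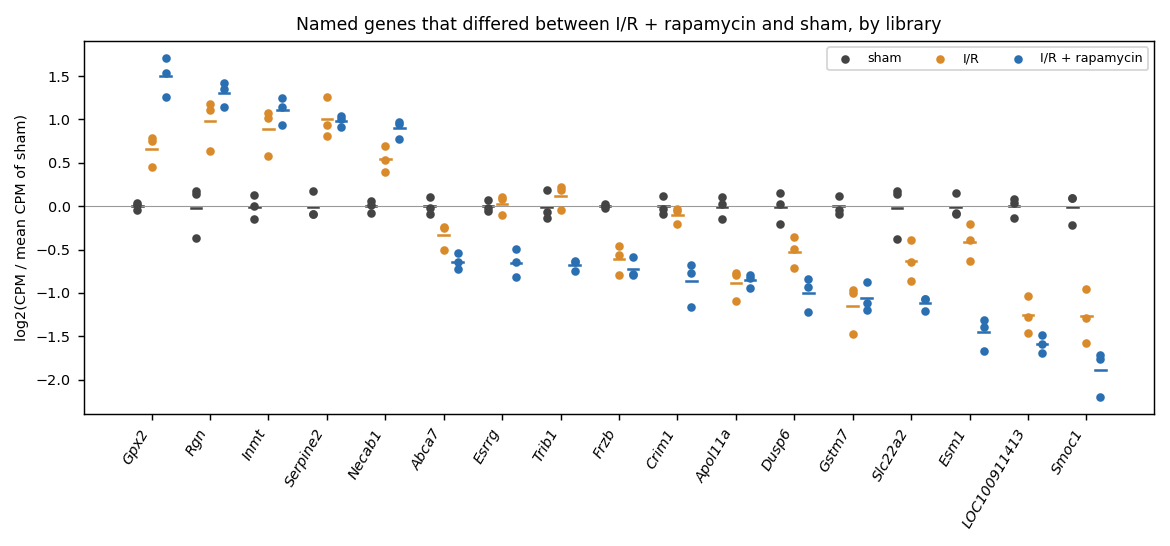
Level of 17 named genes that passed the test, as log2 of each library's CPM over the mean CPM of the sham libraries (y axis), ordered by fold change. Each point is 1 of the 3 libraries of sham (grey), I/R (orange) or I/R + rapamycin (blue) and each bar a group mean; 5 genes lie above and 12 below sham, from Gpx2 (1.51) to Smoc1 (-1.87).

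Genes of glutathione chemistry moved in opposite directions. Gpx2 encodes a glutathione peroxidase that reduces hydroperoxides and is a known target of the oxidant-responsive factor NRF2. Its level was 3.03, 2.86 and 2.99 CPM in sham 1, 2 and 3 and 9.70, 7.08 and 8.55 CPM in the rapamycin libraries, a rise of 2.85-fold (log2FC 1.51 ± 0.18, adjusted p = 0.0154). The sham values lay within a narrow band, and every rapamycin value was more than any of them. The groups of all 27 called genes did not overlap, which the test that chose them favours. Gstm7, a mu-class glutathione transferase gene whose product conjugates glutathione to reactive compounds, was at 25.7, 29.8 and 26.7 CPM in sham and 11.9, 12.6 and 14.96 CPM with rapamycin (log2FC -1.06 ± 0.15, adjusted p = 0.0295). All 3 rapamycin libraries lay under all 3 sham libraries for Gstm7. Mu-class genes have close copies whose reads the authors' counting may have split, so the Gstm7 level is uncertain. Gpx2 passed the test in 6 of 9 fits that left out 1 library, the exceptions being those without rapamycin 1, sham 1 or sham 2 (highest adjusted p = 0.102). Gstm7 passed in 4 of 9, and not without rapamycin 1, rapamycin 2, I/R 2, sham 1 or sham 2 (highest adjusted p = 0.185).

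The promoters of Gpx2 and Gstm7 are shown because both hold the core of the antioxidant response element, TGACNNNGC, the letters to which NRF2 with a small MAF partner binds, while the genes moved in opposite directions. The sequences come from RefSeq (build GRCr8), which matched 14 of the 18 called genes with a symbol, and each run is the 250 bases before the gene's start, 5′ to 3′ on the gene's strand, with the motif in capitals. The Gpx2 stretch is chr6:101230034-101230283, minus strand, and the Gstm7 stretch is chr2:198260320-198260569, minus strand.
Gpx2: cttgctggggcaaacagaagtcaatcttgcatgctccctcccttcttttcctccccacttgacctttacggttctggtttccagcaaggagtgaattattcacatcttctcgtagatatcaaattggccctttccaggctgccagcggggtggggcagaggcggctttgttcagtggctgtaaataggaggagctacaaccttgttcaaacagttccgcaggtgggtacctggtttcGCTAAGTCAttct
Gstm7: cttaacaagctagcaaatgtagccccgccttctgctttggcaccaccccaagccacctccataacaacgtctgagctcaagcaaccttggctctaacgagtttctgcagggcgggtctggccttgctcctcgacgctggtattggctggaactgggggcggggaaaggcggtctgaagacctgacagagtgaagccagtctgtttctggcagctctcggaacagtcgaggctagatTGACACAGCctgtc
The capitals read the motif on the opposite strand in Gpx2 and on the gene's own strand in Gstm7, and they begin 13 and 14 bases before the start. Searched on both strands of 300 bases around the start, the motif was in 3 of the 14 promoters (Gpx2, Gstm7 and Esrrg), against 12.2% of 27457 promoters of that length. The E-box CACGTG, which reads the same on both strands, was in 0 of the 14, against 6.65% of all. A match describes letters only, and the binding of a factor was not measured.

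Described together here are 5 called genes with secreted or cell-surface products, of which 4 were lower and 1 was higher. Esm1 encodes endocan, a proteoglycan released by endothelial cells and induced by vascular endothelial growth factor. It stood at 22.9, 26.97 and 23.1 CPM in sham and 9.26, 7.67 and 9.82 CPM in the rapamycin libraries, 2.73-fold lower (log2FC -1.45 ± 0.14, adjusted p = 0.00711). Smoc1, a SPARC-family matrix protein that antagonises bone morphogenetic proteins, was at 20.3, 25.2 and 25.2 CPM in sham and 5.13, 6.96 and 7.19 CPM with rapamycin (log2FC -1.87 ± 0.19, adjusted p = 0.00711). Smoc1 thus had the lowest fold change among the called genes with a symbol, and sham and rapamycin values of both genes were apart. Crim1, a transmembrane protein with cysteine-rich repeats that binds growth factors and is expressed in podocytes and vessels, was at 92.7, 88.6 and 102 CPM against 42.4, 55.6 and 59.1 CPM (log2FC -0.85 ± 0.12, adjusted p = 0.0295). Frzb, a secreted Wnt antagonist, was at 79.9, 81.4 and 82.7 CPM against 46.9, 54.2 and 47.3 CPM (log2FC -0.72 ± 0.099, adjusted p = 0.0237). The sham libraries of Frzb spanned under 3 CPM. Serpine2, protease nexin-1, an inhibitor of thrombin and urokinase, was the gene that rose, from 13.4, 11.1 and 11.1 CPM to 22.5, 24.4 and 23.8 CPM (log2FC 0.99 ± 0.13, adjusted p = 0.0237). For none of the 5 genes did the groups overlap, which the test that chose them favours. The call of Crim1 ended without rapamycin 1, rapamycin 2, I/R 2 or any of the 3 sham libraries (highest adjusted p = 0.135). That of Frzb ended without any rapamycin library, I/R 2, sham 1 or sham 2 (highest 0.145), and that of Serpine2 without any 1 of the rapamycin or sham libraries (highest 0.135).

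Regulators of signalling and transcription were also among the genes that fell. Dusp6, which dephosphorylates ERK and is itself induced by ERK signalling, was at 66.9, 78.5 and 85.3 CPM in sham and 40.3, 42.9 and 33.1 CPM in the rapamycin libraries, 1.98-fold lower (log2FC -0.99 ± 0.13, adjusted p = 0.0233). Trib1, a pseudokinase that links transcription factors to the ubiquitin ligase COP1, was at 69.8, 83.5 and 66.8 CPM against 43.8, 47.5 and 46.9 CPM (log2FC -0.67 ± 0.11, adjusted p = 0.0446). Esrrg, the orphan nuclear receptor ERR gamma, which drives genes of mitochondrial metabolism and of tubular reabsorption, was at 52.4, 47.96 and 49 CPM against 28.3, 31.8 and 35.4 CPM (log2FC -0.64 ± 0.10, adjusted p = 0.0446). These 3 genes fell, with every rapamycin value under every sham value. The highest adjusted p with 1 library left out was 0.121 for Dusp6, 0.206 for Trib1 and 0.219 for Esrrg. Dusp6 lost its call without rapamycin 1, rapamycin 2 or sham 2, and Trib1 without any rapamycin library, I/R 2, sham 1 or sham 2. Esrrg lost its call without rapamycin 1, rapamycin 2, I/R 2, I/R 3 or any sham library.

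The other 7 named calls included genes of transport and metabolism. Slc22a2 encodes OCT2, the basolateral uptake carrier for organic cations in the proximal tubule. It was at 142, 207 and 202 CPM in sham and 79.8, 87.6 and 87.5 CPM with rapamycin, 2.16-fold lower (log2FC -1.11 ± 0.16, adjusted p = 0.0278). Sham 1 was the lowest sham library and still lay above all rapamycin libraries. OCT2 is known to be higher in male than in female rat kidney. The list of 9 measured genes known to differ by sex in rodent kidney had a median log2 fold change of 0.03 (-0.07 without sham 1). Its members ran from -1.11 to 1.41, with 0 higher and 2 lower (Slc22a2 and Hao2) at an unadjusted p under 0.05. The list was not split by the sex with the higher level, so its median cannot tell whether the groups differed in sex. The part of the animals' sex was not tested. Abca7, an ATP-driven lipid transporter, fell from 107, 97.96 and 93.1 CPM to 59.9, 68.2 and 63.5 CPM (log2FC -0.64 ± 0.098, adjusted p = 0.0399), and Apol11a, an apolipoprotein L gene, from 21.9, 24.8 and 26.2 CPM to 12.6, 13.7 and 14.04 CPM (log2FC -0.85 ± 0.12, adjusted p = 0.0295). The low group was the rapamycin group for all 3, without overlap. Highest adjusted p values with 1 library left out were 0.151 for Slc22a2, 0.205 for Abca7 and 0.157 for Apol11a. Calls ended for each of them without rapamycin 1, rapamycin 2, rapamycin 3 or sham 2; in addition sham 3 ended that of Slc22a2, I/R 2 and sham 1 that of Abca7, and I/R 2, sham 1 and sham 3 that of Apol11a.

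Inmt, which methylates indoles and other amines, rose from 29.98, 32.6 and 26.9 CPM to 70.9, 65.8 and 57.1 CPM, 2.17-fold (log2FC 1.12 ± 0.14, adjusted p = 0.0199). Rgn encodes regucalcin, a calcium-binding lactonase of ascorbate synthesis, and it rose from 26.8, 26.2 and 18.5 CPM to 63.98, 60.7 and 52.5 CPM, 2.48-fold (log2FC 1.31 ± 0.17, adjusted p = 0.0233). Sham 3 was the lowest library for Rgn. Necab1, an EF-hand calcium-binding protein gene, rose from a low level, 6.65, 6.24 and 6.89 CPM in sham, to 12.7, 11.2 and 12.9 CPM (log2FC 0.90 ± 0.13, adjusted p = 0.0314). The sham and rapamycin libraries did not overlap for these 3 genes. LOC100911413, which the deposited table describes as similar to a gene deleted in malignant brain tumours (DMBT1, a scavenger receptor protein of epithelia), was at 29.3, 33.03 and 34.2 CPM in sham and 11.5, 10.7 and 9.95 CPM with rapamycin. It had the smallest adjusted p of all (log2FC -1.59 ± 0.13, adjusted p = 0.00257). Without single libraries the highest adjusted p was 0.106 for Inmt and 0.121 for Rgn, both lost without rapamycin 1, rapamycin 2, sham 1 or sham 2. Necab1 reached 0.151 and was lost without any 1 of the rapamycin or sham libraries or I/R 2, and LOC100911413 reached 0.0305 and was never lost.

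Of the 9 called IDs without a symbol, 1 was higher and 8 were lower. ENSRNOG00000067058 was at 0.953, 0.706 and 0.233 CPM in sham and 5.66, 7.48 and 6.01 CPM in the rapamycin libraries (log2FC 3.34 ± 0.42, adjusted p = 0.0199), with 3.06, 2.17 and 2.22 CPM in I/R. ENSRNOG00000011313 fell from 8.83, 7.32 and 7.25 CPM to 2.73, 2.66 and 2.87 CPM (log2FC -1.50 ± 0.16, adjusted p = 0.00912), with 6.54, 5.56 and 6.08 CPM in I/R. In 5 of the 8 lower IDs the sham mean was at least 20 times the rapamycin mean, and no rapamycin value exceeded 1.07 CPM. Their sham values ran from 0.608 to 73.3 CPM and their I/R values from 0.736 to 70.4 CPM, so some were low in every group. Sham 3 was the highest sham library in 5 of these 5. One of them, ENSRNOG00000070622, had 39.7, 31.3 and 73.3 CPM in sham, 0.739, 0.495 and 0.555 CPM with rapamycin and 70.4, 35.9 and 29.7 CPM in the I/R libraries (log2FC -6.34 ± 0.55, adjusted p = 0.0132). Its rapamycin libraries were close to 0 together and its other libraries were not. The other 3 lower IDs had log2 fold changes from -1.73 to -1.25. The calls of these 3 IDs ended without rapamycin 1 or rapamycin 2 (highest adjusted p 0.103, 0.0767 and 0.114 in the order named), and in addition without sham 2 for the first and rapamycin 3 for the last.

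The untreated injured libraries stood in different places for the 18 called genes with a symbol. They overlapped the rapamycin libraries and not sham for 6 (Inmt, Rgn, Serpine2, Frzb, Gstm7 and Apol11a), overlapped sham and not the rapamycin libraries for 3 (Crim1, Trib1 and Esrrg), and lay wholly between both groups for the other 9. Trib1 was at 85.2, 83.4 and 71.2 CPM in I/R and Esrrg at 52.6, 46.5 and 53.6 CPM, both at the sham level. Esm1 was at 21.05, 18.5 and 15.7 CPM in I/R, between the groups. In the same fit, rapamycin against I/R gave log2 fold changes of -0.80 for Trib1 (adjusted p = 0.0372), -0.68 for Esrrg (adjusted p = 0.0408) and -1.05 for Esm1 (adjusted p = 0.0379). Gstm7 was at 9.85, 14.1 and 13.7 CPM in I/R and Serpine2 at 28.5, 20.9 and 22.8 CPM, so both groups of injured libraries were away from sham. For these, I/R against sham gave -1.13 and 1.02, and rapamycin against I/R gave 0.07 (adjusted p = 0.859) and -0.03 (adjusted p = 0.939). The contrasts share libraries, and the genes were chosen on the contrast with sham, so the values stand side by side only.

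Gene lists of kidney cell types, pathways and complexes gave 1016 measured members, of which 10 were called. They are described by the number of members with an unadjusted p under 0.05, a level that 13.8% of all tested genes reached (6.06% higher and 7.75% lower), and by the median log2 fold change, which was 0.00 over all genes. Non-overlapping groups, with all 3 values of one on the same side of the other, were found for 19.3% of tested genes (9.69% above and 9.65% below sham). List members all carry a symbol, as only 10804 of the tested IDs do. The shares over all tested genes therefore cover a wider set than the lists, with IDs too low for the FPKM table. Among lists with at least 10 measured members, the medians farthest under 0 were those of the immediate early, ERK feedback, podocyte and collecting duct intercalated cell genes. Mitochondrially encoded genes and subunits of oxidative phosphorylation had medians above 0, while autophagy and proximal tubule transport genes had medians of 0.00 and 0.01.

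**Figure D2:**
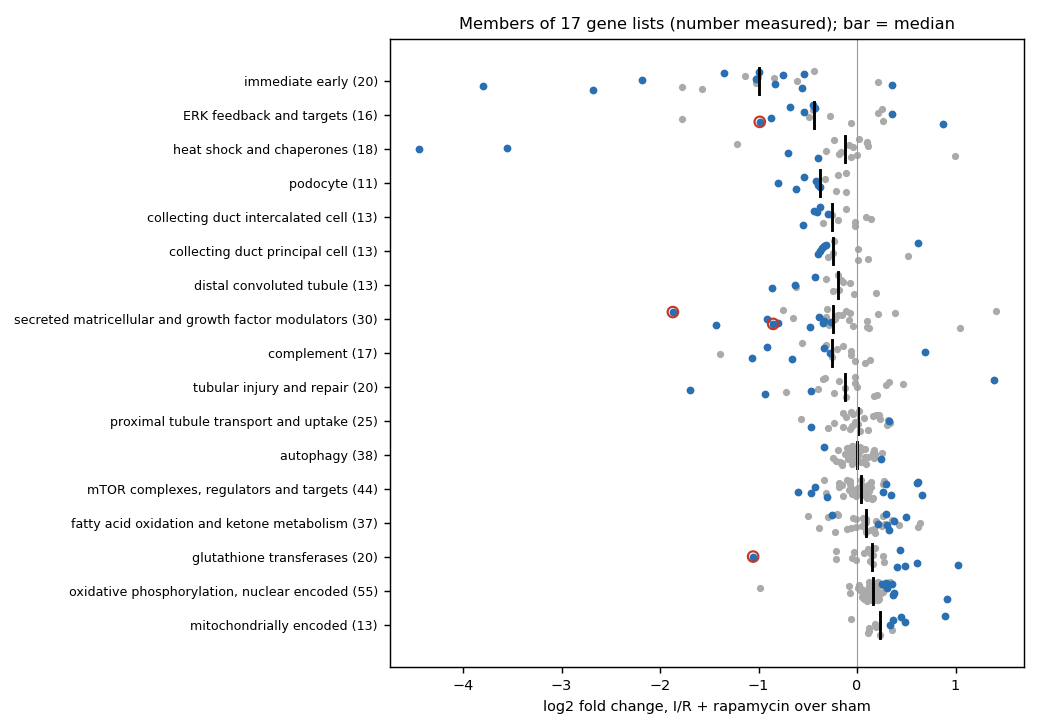
Log2 fold change of I/R + rapamycin over sham (x axis) for every measured member of 17 gene lists (y axis, number measured in brackets). Grey points had an unadjusted p of 0.05 or more, blue points less, red rings mark called genes and the black bar is the list median, which runs from -1.0 for immediate early genes to 0.23 for mitochondrially encoded genes.

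Immediate early genes, which cells transcribe within minutes of stress or growth factor signals, were low in the rapamycin libraries and varied widely in sham. Of 20 measured members, 13 had all rapamycin values under all sham values and 0 above, the median log2 fold change was -1.0, and 10 were lower and 1 higher at an unadjusted p under 0.05. No member was called by edgeR, and DESeq2 called 6, all lower. Fos was at 34.4, 199.8 and 512 CPM in sham and 14.1, 14.97 and 24.5 CPM with rapamycin (log2FC -3.80 ± 1.32, adjusted p = 0.292). Jun, its partner in AP-1, was at 255, 514 and 813 CPM against 104, 107 and 136 CPM (log2FC -2.19 ± 0.58, adjusted p = 0.197). Fosl2, another AP-1 subunit, was at 15.5, 11.7 and 19.3 CPM against 8.68, 9.30 and 8.09 CPM (log2FC -0.83 ± 0.18, adjusted p = 0.102). The rapamycin libraries were close together and the sham libraries were not: sham 3 was highest for each of the 3 genes and sham 1 was the lowest for Fos and Jun. The nuclear receptor gene Nr4a1 (148, 188 and 258 CPM in sham, 84.98, 88.2 and 59.1 CPM with rapamycin) and the stress factor gene Atf3 (13.99, 28.6 and 117 and 8.68, 9.51 and 6.62 CPM) showed the same order. Without sham 3 the list's median was -0.68. In I/R, 1 library was low as well, with Fos at 17.5, 259.5 and 316 CPM.

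Inducible heat shock genes followed the same libraries. Hspa1b, which encodes the inducible chaperone HSP70, was at 54, 174 and 856 CPM in sham and 29.9, 29.6 and 32.8 CPM with rapamycin (log2FC -3.55 ± 1.10, adjusted p = 0.249), and Hspa1a, a near-identical copy with which it can share reads, at 28.5, 90.4 and 550.3 and 20.1, 5.44 and 5.30 CPM. Both were high in sham 3. Dnajb4, a co-chaperone gene, was at 35.5, 31.7 and 43.04 CPM against 18.2, 25.4 and 24.3 CPM without overlap (log2FC -0.70 ± 0.16, adjusted p = 0.115). Of 18 measured chaperone genes, 4 were lower and 0 higher at an unadjusted p under 0.05, and the median was -0.12 (-0.27 without sham 1 and -0.02 without sham 3). Globin, a measure of blood in the tissue, also varied: Hba-a1 was at 178, 145 and 1513 CPM in sham, 80.7, 51.5 and 301 CPM with rapamycin and 736, 1891 and 1869 CPM in I/R, highest in sham 3 among the sham libraries (log2FC -2.08 ± 1.15, adjusted p = 0.482). The part of sham 3 and of blood in these stress genes was not tested.

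**Figure D3:**
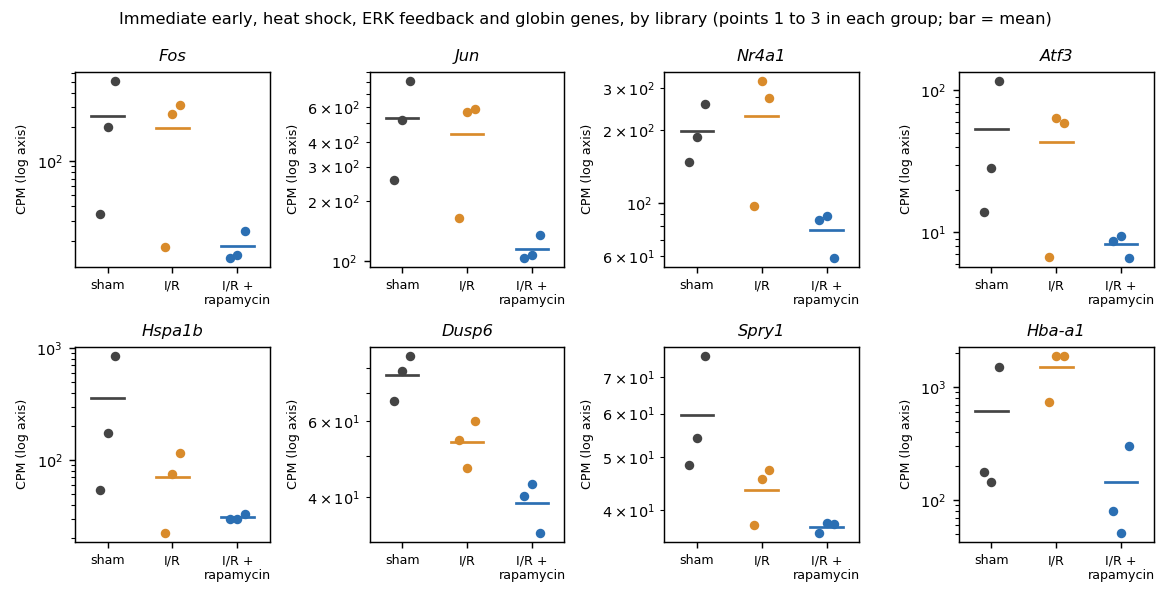
CPM per library on a log axis (y axis) for 4 immediate early genes, the heat shock gene Hspa1b, the ERK feedback genes Dusp6 and Spry1 and the globin gene Hba-a1, with libraries 1 to 3 from left to right in sham, I/R and I/R + rapamycin and a bar at each group mean. Rapamycin libraries of Fos, Jun and Hspa1b sit close together under all sham libraries, which stand at 34.4, 199.8 and 512 CPM for Fos.

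Among genes induced by ERK signalling, Dusp6 alone passed the test. Of 16 measured members, 6 were lower and 2 higher at an unadjusted p under 0.05, 8 lay wholly under sham, and the median was -0.43 (-0.28 without sham 3). Spry1, a Sprouty protein that restrains receptor tyrosine kinase signalling, was at 48.3, 54.1 and 76.5 CPM in sham and 36.4, 37.9 and 37.7 CPM with rapamycin (log2FC -0.68 ± 0.16, adjusted p = 0.124). Its relative Spry2 was at 24.2, 30.6 and 27.2 and 19.2, 20.9 and 19.8 CPM (log2FC -0.45 ± 0.12, adjusted p = 0.177). Both had rapamycin values under every sham value, with sham 3 highest for Spry1 and sham 2 for Spry2. Ccnd1, cyclin D1, which drives entry into the cell cycle, lay the other way, at 69.2, 65.3 and 76.5 CPM in sham and 151, 139.7 and 95.4 CPM with rapamycin (log2FC 0.87 ± 0.17, adjusted p = 0.0935). Its partner kinase gene Cdk4 was at 51.6, 57.2 and 55.03 and 71.6, 72.3 and 65.6 CPM (log2FC 0.35 ± 0.080, adjusted p = 0.115). Rapamycin values of both lay above sham, and of the 10 measured cell cycle genes 4 were higher and 0 lower at an unadjusted p under 0.05 (median 0.11). The other 20 of the 30 listed cell cycle genes have no symbol or too few reads.

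Endothelial genes did not move as a group. Of 20 measured, Esm1 alone was called, 3 were higher and 5 lower at an unadjusted p under 0.05, and the median was -0.07. Flt1, a receptor for vascular endothelial growth factor, was at 72.9, 80.5 and 81.3 CPM in sham and 47.1, 51.8 and 62.1 CPM with rapamycin, wholly under sham (log2FC -0.54 ± 0.11, adjusted p = 0.0938). Kdr, the main signalling receptor for that factor, was at 123, 134 and 128 and 78.8, 89.9 and 117 CPM (log2FC -0.43 ± 0.16, adjusted p = 0.266). Tie1, an endothelial receptor kinase, lay above sham, at 67.02, 61.5 and 42.99 and 81.6, 75.8 and 78.1 CPM (log2FC 0.46 ± 0.14, adjusted p = 0.199). The summed level of the 4 defining endothelial markers was 345 to 354 CPM in sham and 304 to 343 CPM with rapamycin. Among 30 secreted matrix and growth factor modulators, 2 were called lower (Smoc1 and Crim1), 10 were lower and 0 higher at an unadjusted p under 0.05, 11 lay wholly under sham, and the median was -0.25. Crispld2, a secreted glycoprotein gene, was at 13.8, 12.3 and 17.2 CPM against 6.98, 7.80 and 10.05 CPM (log2FC -0.80 ± 0.17, adjusted p = 0.102), and Fgf1, fibroblast growth factor 1, at 150.2, 155 and 139 against 105, 119 and 128 CPM (log2FC -0.34 ± 0.097, adjusted p = 0.188). Neither overlapped between the groups.

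Podocytes, the epithelial cells that wrap the glomerular capillaries, had lower marker levels in the rapamycin libraries. All 11 measured podocyte genes had a fitted log2 fold change under 0 (median -0.38), 6 of them with an unadjusted p under 0.05. By edgeR 0 were called, and by DESeq2 2 were called, both lower. Synpo, the actin-associated protein synaptopodin, was at 102, 95.7 and 108 CPM in sham, 61.7, 63.4 and 84.8 CPM with rapamycin and 101, 76.7 and 62.8 CPM in I/R (log2FC -0.54 ± 0.17, adjusted p = 0.22). Nphs1, which encodes nephrin of the slit diaphragm, was at 119, 126 and 125 CPM in sham and 77.01, 98.03 and 106 CPM with rapamycin (log2FC -0.40 ± 0.14, adjusted p = 0.248). For both genes the rapamycin libraries lay under sham, with rapamycin 3 nearest to it. In bulk tissue, fewer podocytes and less RNA per podocyte cannot be told apart, and the same holds for every cell type below. The summed level of the 3 defining podocyte markers was 555 to 573 CPM in sham, 344 to 476 CPM with rapamycin and 371 to 510 CPM in I/R.

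The distal nephron and collecting duct lay slightly under sham, and the proximal tubule did not. Among 13 distal convoluted tubule genes, 3 were lower and 0 higher at an unadjusted p under 0.05 (median -0.19, from -0.36 without rapamycin 3 to -0.12 without rapamycin 1). Slc12a3, the thiazide-sensitive sodium chloride cotransporter, was at 463, 451 and 572 CPM in sham and 247, 312 and 402 CPM with rapamycin (log2FC -0.63 ± 0.20, adjusted p = 0.22), and Klhl3, part of the ubiquitin ligase that controls this transporter through WNK kinases, at 30.7, 21.8 and 25.8 and 10.1, 14 and 18.7 CPM (log2FC -0.87 ± 0.23, adjusted p = 0.177). Rapamycin 1 was lowest for both and no value overlapped sham. Of 13 intercalated cell genes 5 were lower and 0 higher (median -0.26), among them the ammonia channel gene Rhcg at 151, 159 and 146 CPM against 119, 106 and 118 CPM (log2FC -0.41 ± 0.092, adjusted p = 0.115) and the proton pump subunit gene Atp6v1b1 at 158, 175 and 136 against 93.9, 94.3 and 132 CPM (log2FC -0.55 ± 0.16, adjusted p = 0.184). Of 13 principal cell genes 5 were lower and 1 higher (median -0.24). Scnn1a, the alpha subunit of the epithelial sodium channel, was at 92.2, 97.1 and 107 CPM against 78.4, 66.96 and 85.4 CPM (log2FC -0.36 ± 0.099, adjusted p = 0.178). Sgk1, the aldosterone-induced kinase that keeps this channel at the membrane and a target of mTOR complex 2, was the higher one, at 303, 375 and 295 CPM in sham and 452, 468 and 576 CPM with rapamycin (log2FC 0.62 ± 0.17, adjusted p = 0.176).

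In the thick ascending limb, 1 of 14 genes was higher and 2 lower at an unadjusted p under 0.05 (median 0.08, and -0.07 without rapamycin 1). Umod, uromodulin, was at 1808, 1657 and 1825 CPM in sham and 3067, 1997 and 1513 CPM with rapamycin, overlapping (log2FC 0.31 ± 0.28, adjusted p = 0.669). Gp2, a membrane glycoprotein related to uromodulin, missed edgeR's threshold but was called under 10 of 21 alternatives, DESeq2 among them (adjusted p = 8.25e-08). It stood at 176, 244 and 284 CPM in sham, 102, 86.9 and 98.4 CPM with rapamycin and 51.9, 83.04 and 57.02 CPM in I/R (log2FC -1.30 ± 0.21, adjusted p = 0.0579). All rapamycin values of Gp2 were under sham and above I/R. Of 25 proximal tubule transport genes, 1 was higher and 1 lower, 0 had groups that did not overlap, and the median was 0.01 (-0.12 without sham 1 and 0.14 without sham 3). Slc34a1, the main phosphate carrier of that segment, was at 2506, 3074 and 3797 CPM in sham and 2706, 3222 and 3299.8 CPM with rapamycin (log2FC -0.02 ± 0.17, adjusted p = 0.967). Of 24 organic ion and drug transporters, Slc22a2 alone was called, and the median was 0.07 (-0.02 without sham 1 and 0.15 without sham 3).

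**Figure D4:**
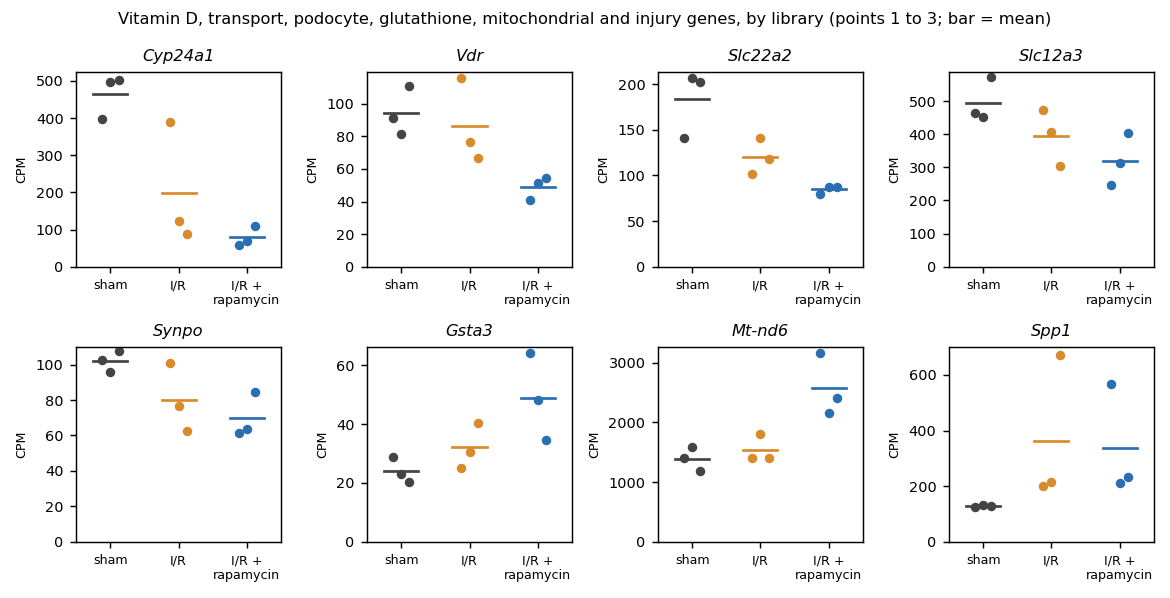
CPM per library (y axis, linear from 0) for 2 vitamin D genes, 2 tubular transporters, the podocyte gene Synpo, the glutathione transferase gene Gsta3, Mt-nd6 and Spp1, with libraries 1 to 3 from left to right in sham, I/R and I/R + rapamycin and a bar at each group mean. Cyp24a1, Vdr, Slc22a2, Slc12a3 and Synpo lie under sham with rapamycin, and Spp1 is high in 1 library of each injured group (567 CPM in rapamycin 1 and 674 CPM in I/R 3).

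Vitamin D genes were low in the rapamycin libraries and did not pass edgeR's test. Cyp24a1, the mitochondrial enzyme that inactivates vitamin D and is induced by its receptor, was at 397, 498 and 502 CPM in sham and 59.6, 70.3 and 109 CPM with rapamycin, a 5.86-fold difference (log2FC -2.55 ± 0.58, adjusted p = 0.167; DESeq2 adjusted p = 0.00287). The I/R libraries were at 388, 123 and 87.4 CPM, with I/R 1 near sham and the other 2 near the rapamycin group. Vdr, the vitamin D receptor, was at 90.98, 81.3 and 111 CPM in sham, 41.02, 51.6 and 54.7 CPM with rapamycin and 116, 76.4 and 66.6 CPM in I/R (log2FC -0.94 ± 0.21, adjusted p = 0.12; DESeq2 adjusted p = 0.000856). No rapamycin value of either gene reached a sham value. Other genes of calcium and phosphate handling were closer to sham: of the 19 measured, 3 were higher, among them the called gene Rgn, and 2 lower at an unadjusted p under 0.05, with a median of -0.10 (0.06 without sham 3). Pth1r, the parathyroid hormone receptor, was at 347, 376 and 342 CPM in sham and 403, 438 and 400.1 CPM with rapamycin (log2FC 0.22 ± 0.091, adjusted p = 0.325), and Slc34a3, another renal phosphate carrier, at 122, 130.01 and 161 and 149, 182 and 185 CPM (log2FC 0.32 ± 0.14, adjusted p = 0.354).

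Mitochondrial transcripts were slightly higher in the rapamycin libraries. Of the 13 mitochondrially encoded genes, 5 were higher and 0 lower at an unadjusted p under 0.05, 7 lay wholly above sham, and the median was 0.23. Mt-nd6, a complex I subunit encoded on the other strand from most mitochondrial genes, was at 1397, 1581 and 1189 CPM in sham and 3169.7, 2161 and 2412 CPM with rapamycin (log2FC 0.89 ± 0.17, adjusted p = 0.0935), so every rapamycin value was above sham. The strand setting of the counts is not given in the sources used here, so its reads and antisense reads cannot be told apart. Mt-nd5 was at 3999.9, 3128 and 4285 CPM against 5487, 4773 and 5239.9 CPM (log2FC 0.44 ± 0.14, adjusted p = 0.217). Among 55 nuclear genes of oxidative phosphorylation, 52 had fitted log2 fold changes above 0, against 50.2% of all tested genes, 7 were higher and 0 lower at an unadjusted p under 0.05, and 0 were called by either edgeR or DESeq2 (median 0.16, from 0.09 without sham 1 to 0.27 without sham 2). Cycs, cytochrome c, was at 155, 181 and 139 CPM in sham and 196, 193 and 228 CPM with rapamycin (log2FC 0.38 ± 0.12, adjusted p = 0.224). These transcripts are short, and with the trend on implied length removed the medians were 0.10 for the nuclear genes and 0.15 for the mitochondrially encoded ones. The share of counts on mitochondrially encoded genes ran from 16.0% to 17.4% in sham and from 17.5% to 19.7% in the rapamycin libraries, so these did not overlap.

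Fatty acid oxidation and ketone genes lay near sham. Of 37 measured, 6 were higher and 1 lower at an unadjusted p under 0.05, 7 lay wholly above sham, and the median was 0.09 (0.04 without sham 1 and 0.20 without sham 2). Oxct1, the enzyme that activates ketone bodies for oxidation, was at 734, 784 and 659 CPM in sham and 1052, 1070.05 and 955 CPM with rapamycin (log2FC 0.50 ± 0.12, adjusted p = 0.131). Cpt1a, which carries fatty acids into mitochondria, was at 157, 136 and 135 CPM against 169, 181 and 179 CPM (log2FC 0.31 ± 0.088, adjusted p = 0.188). Both were wholly above sham. Cth, which makes cysteine from cystathionine, was at 278, 258 and 259.8 CPM in sham and 603, 586 and 335 CPM with rapamycin (log2FC 0.94 ± 0.27, adjusted p = 0.197), with rapamycin 3 much nearer to sham than the other 2. Acsm3, a mitochondrial medium-chain acyl-CoA synthetase, was at 144, 186 and 165 CPM in sham, 119.7, 134 and 175 CPM with rapamycin and 449, 508 and 363 CPM in I/R. The rapamycin libraries of Acsm3 overlapped sham (log2FC -0.20 ± 0.17, adjusted p = 0.634), and all I/R values were higher than both.

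Detoxifying genes had more members above than under sham, by small medians. At an unadjusted p under 0.05 were 30% of glutathione transferases, 13.3% of NRF2 and glutathione genes and 14.7% of cytochrome P450 and conjugating genes. The share over all tested genes was 13.8%. With the trend on implied length removed, the medians of these lists were 0.08, 0.07 and 0.13. Among 20 glutathione transferases, 5 were higher and 1 lower at an unadjusted p under 0.05 (median 0.15), the lower one being Gstm7, the called gene. Gsta3, an alpha-class transferase gene, was at 28.8, 23.01 and 20.2 CPM in sham and 64.1, 48.3 and 34.5 CPM with rapamycin (log2FC 1.03 ± 0.25, adjusted p = 0.149), and Gstz1, which also serves tyrosine breakdown, at 165, 178 and 157 and 238, 239 and 199 CPM (log2FC 0.44 ± 0.097, adjusted p = 0.114). Neither overlapped sham, and Gsta3 shares a family of close copies. In the list of 30 genes of NRF2 and glutathione, Gpx2 alone was called, 3 were higher and 1 lower (median 0.13). Hmox1, haem oxygenase 1, an NRF2 target of injured tubules, was at 4.22, 5.28 and 19.2 CPM in sham and 7.21, 8.16 and 9.34 CPM with rapamycin, overlapping, with sham 3 highest (log2FC -0.22 ± 0.52, adjusted p = 0.892). Of 34 cytochrome P450 and conjugating genes, Inmt was called, 4 were higher and 1 lower (median 0.14, and 0.02 without sham 1). Fmo5, a flavin-containing monooxygenase gene, was at 55.1, 61.8 and 60.7 CPM against 76.8, 86.96 and 70.1 CPM, wholly above sham (log2FC 0.40 ± 0.16, adjusted p = 0.306).

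For transcripts of the drug's own pathway, edgeR called 0 genes, and DESeq2 called 4 higher and 1 lower. Mtor was at 67.9, 58.7 and 72.4 CPM in sham and 59.98, 64.6 and 67.3 CPM with rapamycin (log2FC -0.05 ± 0.095, adjusted p = 0.848). Fkbp1a, which encodes FKBP12, the protein that rapamycin binds, was at 88.1, 98.8 and 97.4 CPM against 104, 96.1 and 99.6 CPM (log2FC 0.08 ± 0.098, adjusted p = 0.781). Both genes overlapped between the groups. Of 44 genes of the mTOR complexes, their regulators and targets, 6 were higher and 4 lower at an unadjusted p under 0.05, and the median was 0.04. Sesn1, which lowers mTOR complex 1 activity and is a p53 target, was at 26.8, 25.1 and 21.8 CPM in sham and 36.1, 44.1 and 31.9 CPM with rapamycin (log2FC 0.61 ± 0.13, adjusted p = 0.115). Rragc, a GTPase that brings the complex to lysosomes, was at 73.9, 73.9 and 77.04 CPM against 90.9, 97.95 and 86.5 CPM (log2FC 0.29 ± 0.075, adjusted p = 0.16). Fkbp5, a glucocorticoid-induced immunophilin that also binds rapamycin, was at 67.7, 73.9 and 91.4 CPM against 129.6, 143 and 95.4 CPM (log2FC 0.66 ± 0.16, adjusted p = 0.149). None of these 3 overlapped sham, and rapamycin 3 lay nearest to sham for Sesn1, Rragc and Fkbp5.

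Autophagy genes lay near sham. Of 38 measured, 1 was higher and 1 lower at an unadjusted p under 0.05, 0 were called by edgeR or DESeq2, and the median was 0.00. Map1lc3b, the LC3 protein of autophagosome membranes, was at 68.4, 64.6 and 80.9 CPM in sham and 75.2, 70.9 and 69.4 CPM with rapamycin (log2FC 0.01 ± 0.10, adjusted p = 0.977). Sqstm1, the cargo receptor p62, was at 293, 334 and 318 CPM against 309, 335 and 358 CPM (log2FC 0.08 ± 0.11, adjusted p = 0.785), and Becn1, part of the kinase complex that starts autophagosomes, at 96.2, 104 and 97.96 against 106, 107 and 109 CPM (log2FC 0.11 ± 0.071, adjusted p = 0.518). Becn1 was slightly higher in all rapamycin libraries, and the other 2 overlapped. These are transcript levels, and autophagic flux was not measured. Of 37 lysosomal genes 4 were higher and 2 lower (median 0.03, and -0.05 without sham 1), of 75 cytosolic ribosomal protein genes 2 were higher and 2 lower (median -0.05, and 0.03 without rapamycin 3), and of 22 genes of sterol synthesis and uptake 4 were higher and 0 lower (median 0.18, and 0.07 without rapamycin 2). Msmo1, a sterol demethylation enzyme gene, was at 26.9, 30.03 and 35.7 CPM in sham and 45.5, 47.5 and 39.5 CPM with rapamycin, without overlap (log2FC 0.52 ± 0.12, adjusted p = 0.115).

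Markers of tubular injury that could be measured by name were mixed. Of 20 measured of 28 listed, 1 was higher and 3 lower at an unadjusted p under 0.05 (median -0.12, and -0.01 without rapamycin 3). By edgeR 0 were called, and by DESeq2 2 were, both lower. Spp1, osteopontin, was at 125, 132 and 129 CPM in sham and 567, 211 and 231 CPM with rapamycin (log2FC 1.39 ± 0.58, adjusted p = 0.359), and every rapamycin value was above the narrow sham range, led by rapamycin 1. Lcn2, the tubular injury marker NGAL, was at 1.76, 2.57 and 5.24 CPM against 4.27, 2.47 and 6.51 CPM, overlapping (log2FC 0.47 ± 0.46, adjusted p = 0.696). Gdf15, a stress-induced cytokine, was at 7.55, 18.5 and 24.9 CPM against 5.71, 4.76 and 5.34 CPM (log2FC -1.69 ± 0.43, adjusted p = 0.172), and Cdkn1a, the p53-induced cell cycle inhibitor p21, at 4.99, 4.86 and 7.05 against 3.00, 2.09 and 3.77 CPM (log2FC -0.93 ± 0.24, adjusted p = 0.161). Both lay wholly under sham. Havcr1, the marker KIM-1, has no symbol in the tables and is not reported. In the 24 measured apoptosis and p53 genes, 6 were higher and 5 lower (median 0.10, and 0.03 without sham 1). Bax was at 20.4, 23.6 and 19.7 CPM in sham and 24.1, 25.5 and 23.7 CPM with rapamycin (log2FC 0.21 ± 0.13, adjusted p = 0.508), and Bcl2 at 18.7, 16.2 and 20.1 and 16.1, 13.98 and 16.95 CPM (log2FC -0.23 ± 0.16, adjusted p = 0.567). Mcl1, a pro-survival relative of Bcl2, was at 154, 174 and 151 CPM against 201, 221 and 212 CPM, wholly above sham (log2FC 0.40 ± 0.088, adjusted p = 0.109).

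Stroma and basement membrane showed single genes above sham rather than a shift of a list. Of 19 collagen and laminin genes of basement membranes, 4 were higher and 2 lower at an unadjusted p under 0.05 (median 0.06, and 0.13 without sham 3). Col15a1, collagen XV, missed the threshold, at 5.90, 7.38 and 8.81 CPM in sham, 12.4, 14.04 and 16.6 CPM with rapamycin and 23.2, 21.8 and 23.4 CPM in I/R (log2FC 0.96 ± 0.16, adjusted p = 0.0629). Nid1, which joins laminin to collagen IV, was at 94.3, 75.1 and 94.9 CPM in sham and 125, 138 and 126 CPM with rapamycin (log2FC 0.56 ± 0.14, adjusted p = 0.154). All rapamycin values of both were above sham, and I/R was higher still for Col15a1. Of 18 fibroblast and interstitial matrix genes, 3 were higher and 0 lower (median -0.15, from -0.33 without sham 2 to 0.095 without sham 3). Sparc, a matricellular protein of remodelling tissue, was at 362, 333 and 346 CPM in sham and 483, 481 and 511 CPM with rapamycin (log2FC 0.50 ± 0.11, adjusted p = 0.109). Col1a1, the main fibrillar collagen, was at 90.8, 22.4 and 47.6 CPM against 35.7, 46 and 66.2 CPM, overlapping (log2FC -0.12 ± 0.49, adjusted p = 0.938).

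Among immune genes edgeR called 0, and DESeq2 called 0 of the macrophage list and 1 higher and 2 lower of the complement list. Of 16 macrophage genes, 2 were higher and 1 lower at an unadjusted p under 0.05 (median 0.05, -0.09 without sham 1, -0.03 without rapamycin 1 and 0.33 without sham 3), and the 3 defining macrophage markers summed to 39.8 to 75.7 CPM in sham and 48.5 to 58.1 CPM with rapamycin. Of 17 complement genes 5 were lower and 1 higher (median -0.25, and -0.05 without sham 3). C1s, the protease that starts the classical pathway, was at 86.3, 88.8 and 178 CPM in sham and 47.8, 68.03 and 53.5 CPM with rapamycin (log2FC -1.06 ± 0.28, adjusted p = 0.181), and its partner C1r at 97.9, 120.3 and 188 and 84.4, 89.7 and 82.2 CPM (log2FC -0.66 ± 0.20, adjusted p = 0.199). Sham 3 was the highest library for both, and no rapamycin value reached a sham value. Cd55, which shields cells from complement, was the higher member, at 27.03, 28.9 and 20.4 CPM against 36.5, 34.6 and 51.5 CPM (log2FC 0.69 ± 0.17, adjusted p = 0.143). Of 31 interferon response genes 1 was higher and 0 lower (median 0.10, -0.01 without sham 1 and 0.24 without sham 3).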

How the data were processed

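Poly(A) RNA of 9 rat kidney samples was sequenced, per the labels' protocols. Without roles or versions, the submitters' processing notes list cutadapt, HISAT2, StringTie and DESeq2, with Rnor_6.0 as the build. Annotation, strand setting and counting rule were not given in the sources used here. The authors deposited whole-number read counts for 30454 Ensembl gene IDs, and a table with FPKM columns, per the file headers, that holds 11235 genes. Each of these reached 1 FPKM in 8 or 9 libraries. Symbols come from that table. A gene that was below this level in sham and I/R therefore carries no name here. The same holds for a gene that was below it in all rapamycin libraries. The called IDs with the largest falls have no symbol, so the named calls do not show the full range of losses. Coordinates of the deposited tables are not printed, since they do not settle the build.

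Counts were fitted in R 4.3.3 with edgeR 4.0.16 (TMM factors, default filter on low counts, robust quasi-likelihood tests), all 9 libraries in one fit with 6 residual degrees of freedom and no covariates. Called genes had a Benjamini-Hochberg adjusted p under 0.05 over all tested genes. CPM values use TMM-scaled library sizes, and a standard error (SE) is the log2 fold change over the square root of the F statistic. The fit was also run on counts simulated from its own estimates of spread, with no outlying library. That run therefore does not bear on how stable the calls in these libraries are. Libraries of a group differed from each other beyond sampling noise (chi-square per degree of freedom 35.4 to 140), and each was kept as a replicate. At these depths the spread between libraries, not counting error, limited precision for all but rare transcripts.

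The comparison, the 52 gene lists (1261 genes) and the tests were chosen with earlier results of these data known, so no test of a list is given. Named were all called genes with a symbol, from each list described the 4 or fewer members of smallest p, 18 further genes in every case and at most 2 IDs without a symbol per direction. Some genes that this rule names are left out of the text, with their values. Nr4a1 and Atf3 were named after their values were seen. Alternatives were DESeq2 1.42.0, other scaling factors, a fit of all genes with a read, a filter at 1 CPM in 6 libraries, the 6 libraries alone, the replicate number as a block, limma 3.58.1 on log2(FPKM + 1) and log2(FPKM + 0.1), a threshold of 0.01, the genes of the FPKM table alone, removal of the length trend, and libraries left out.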

Additional observations from a re-analysis of the deposited data

How the results depend on the processing

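The counts of 27 genes called, 7 higher and 20 lower, moved with the test and the libraries. DESeq2 called 568 (198 higher, 370 lower), and a threshold of 0.01 left 4 (0 higher, 4 lower). Without I/R 1 and sham 3 together, 104 were called (36 higher, 68 lower), 25 of them shared with the 27. With each library left out in turn the count ran from 3 to 47, the higher genes from 0 to 13 and the lower genes from 3 to 37. The higher count was 4 by limma on log2(FPKM + 1) and 15 with the length trend removed, and the lower count 13 for genes of the FPKM table alone. The cause of these differences was not tested. Other scaling factors, filters on low counts, the 6 libraries alone and limma on log2(FPKM + 0.1) gave 19 to 28 calls. Similar counts did not mean the same genes. Of the 27, 16 were among the 19 called in the 6 libraries alone. Crim1, Necab1, Abca7, Trib1 and Esrrg were among those lost there (edgeR adjusted p 0.0537 to 0.077). Limma on log2(FPKM + 0.1), limited to genes of the FPKM table, also shared 16. The 30 calls without rapamycin 3 shared 14, and the 40 without sham 3 shared 19.

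With the replicate number as a block, 7 genes were called (1 higher, 6 lower), 6 of them among the 27. Deviations from the group mean correlated at 0.049, 0.0063 and 0.14 between same-numbered sham and rapamycin libraries, against -0.12 to 0.099 for other numbers. With 3 libraries per group, these values cannot decide whether the numbers pair the samples.

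For the 18 named called genes, 268 of 378 values under alternatives kept direction and call, 110 kept the direction and lost the call, and 0 reversed. Of the named genes not called, 68 gained a call under at least 1 alternative, in 97 values. Of 782 list medians under alternatives, 56 differed in sign from the main one, in 20 of 46 lists, each with a main median of at most 0.147 in size. Among them, that of fatty acid synthesis (-0.11) ran from -0.215 without sham 2 to 0.0824 without sham 3 and was 0.0823 without both I/R 1 and sham 3, and that of the mTOR list (0.04) was -0.0027 and -0.00163 by limma on log2(FPKM + 1) and log2(FPKM + 0.1).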

Other observations

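Several groups not described above held single genes away from sham. Gja1, connexin 43, a gap junction protein of vessels and interstitial cells, was at 21.4, 23.2 and 27.1 CPM in sham, 11.8, 14.4 and 14.7 CPM in the rapamycin libraries and 33.6, 28.4 and 24.3 CPM in I/R (log2FC -0.81 ± 0.15, adjusted p = 0.0804), so its rapamycin values lay under all others. Of the 19 measured iron and ferroptosis genes, 2 were higher and 3 lower at an unadjusted p under 0.05, with 0 called by edgeR or DESeq2. The iron exporter ferroportin, Slc40a1, was at 123, 128 and 119.7 CPM in sham and 84.8, 90.7 and 102 CPM with rapamycin (log2FC -0.42 ± 0.12, adjusted p = 0.189), and the iron importer gene Slc11a2 at 238, 189.5 and 169.8 and 129, 151 and 166 CPM (log2FC -0.42 ± 0.14, adjusted p = 0.234). Both lay under sham.

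In the 21 measured genes of the hypoxia response, 2 were higher and 2 lower at an unadjusted p under 0.05 (median 0.01, and -0.03 without rapamycin 1). By edgeR 0 were called, and by DESeq2 1 higher and 1 lower. Ankrd37, a target of hypoxia-inducible factor, was at 8.55, 10.8 and 11.1 CPM in sham and 19.8, 21.3 and 14.6 CPM with rapamycin (log2FC 0.87 ± 0.21, adjusted p = 0.138), while Adm, adrenomedullin, a vasodilator peptide gene induced by the same factor, was at 11.97, 18.9 and 31.2 and 9.22, 10.9 and 11.9 CPM (log2FC -0.95 ± 0.31, adjusted p = 0.23). The pair thus lay on opposite sides of sham. One ID without a symbol was at 0 CPM in all 3 sham libraries, at 36.1 CPM in rapamycin 1 and at 0 in rapamycin 2 and rapamycin 3, with 0 in I/R 1, 29.96 CPM in I/R 2 and 25.7 CPM in I/R 3. DESeq2 called this ID higher than sham (adjusted p = 4.11e-07) and edgeR did not (adjusted p = 0.503), so that DESeq2 call rests on 1 rapamycin library. The ID was chosen after its values were seen.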
